A study of Mus musculus with 13 samples.

Results

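Heterotrimeric G proteins were examined in single excitatory neurons of the mouse claustrum through 10 of their subunit genes, chosen by name with earlier results of these data known. They are 4 beta subunits, Gnb1, Gnb2, Gnb4 and Gnb5, and 6 alpha subunits, Gnao1, Gnas, Gnaq, Gnal, Gnai1 and Gnaz. All 10 were listed in both deposited count tables, among 23427 genes. Cells came from 4 mature male C57BL/6 mice, had been picked by hand from dissected claustrum, and were sequenced in 13 plates. In the blindly sampled mouse, which filled 3 plates, rAAV2-retro-CAG-GFP injected into the anterior cingulate cortex guided the dissection, and cells were taken without regard to GFP. In projection mice 1, 2 and 3, which filled 10 plates, retrograde beads labelled cells projecting to retrosplenial cortex (RSC) or lateral entorhinal cortex (LEC), and unlabelled cells were taken as well. The labels call the blindly sampled mouse WT and give neither a genotype nor a genetic alteration for the projection mice. Every mouse carried a tracer.

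Of 1112 harvested cells, 1011 held at least 1 count of both Snap25, a synaptic protein of neurons, and Slc17a7, a vesicular glutamate transporter, and were kept. The kept cells comprised 247 RSC, 286 LEC and 478 unlabelled cells, the last from all 4 mice. A cell was called Synpr-high when Synpr, a synaptic vesicle protein that marks the claustrum core, reached 200 CPM (counts scaled to a common library total). That limit gave 438 Synpr-high and 573 Synpr-low cells, and few cells lay near it, with 13 between 100 and 200 CPM and 8 between 200 and 400 CPM. Counts were summed per mouse and group, and the mouse was the replicate in every test. The 1112 cells had as many distinct identifiers of well and plate, so no identifier was shared. Sums for the Synpr comparison held 3461016 to 27601436 counts, and median totals per cell were 25475 and 28770 in the blindly sampled mouse against 127050.5 to 197697 in the projection mice. Of 10 projection plates, 9 held 1 mouse and 1 label, so plate and projection target cannot be told apart there, whereas plate 12 held 34 RSC and 44 LEC cells of projection mouse 3. Markers of other cells were low in the Synpr-high and Synpr-low sums, reaching 2.44 CPM for 4 astrocyte genes, 5.81 for 4 microglial genes and 0.931 for 3 vascular genes. Oligodendrocyte genes ranged from 23.4 to 310 CPM in Synpr-high and from 44.0 to 483 CPM in Synpr-low, and the 5 listed inhibitory genes from 0 to 141 and from 0 to 31.8 CPM. In 4 kept cells both Gad1 and Gad2, the enzymes that make GABA, had counts.

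G proteins carry signals from membrane-spanning receptors to enzymes and ion channels. An alpha subunit, which binds guanine nucleotides and sets the class of the G protein, rests on a tight pair of a beta and a gamma subunit, and an activated receptor separates the alpha subunit from that pair so that both act on effectors. Gnao1 and Gnai1 belong to the inhibitory class, as does Gnaz, whereas Gnas and Gnal stimulate adenylyl cyclase and Gnaq activates phospholipase C beta. Among beta subunits, Gnb1, Gnb2 and Gnb4 pair with gamma subunits, whereas Gnb5 is the divergent member that pairs with regulators of G protein signalling (RGS) of the R7 family. Gnb4 and the gamma subunit Gng2 are both known as markers of the claustrum in rodents.

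Promoters of the subunits were taken from a set of RefSeq promoters (build GRCm38.p6). In the set used here 7 of the 10 genes had an entry, and Gnb4, Gnal and Gnaz had none. The 250 bases before the start are shown for Gnao1 and Gnb5, the members with an entry that differed most upward and downward between the Synpr groups, with each CG in capitals.
Gnao1, chr8:93810588-93810837, plus strand: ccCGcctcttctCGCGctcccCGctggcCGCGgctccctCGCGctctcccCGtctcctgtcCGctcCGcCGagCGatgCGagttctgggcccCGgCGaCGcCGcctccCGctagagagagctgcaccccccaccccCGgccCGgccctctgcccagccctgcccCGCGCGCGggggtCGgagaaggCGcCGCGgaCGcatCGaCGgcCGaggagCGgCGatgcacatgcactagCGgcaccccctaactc
Gnb5, chr9:75306038-75306287, plus strand: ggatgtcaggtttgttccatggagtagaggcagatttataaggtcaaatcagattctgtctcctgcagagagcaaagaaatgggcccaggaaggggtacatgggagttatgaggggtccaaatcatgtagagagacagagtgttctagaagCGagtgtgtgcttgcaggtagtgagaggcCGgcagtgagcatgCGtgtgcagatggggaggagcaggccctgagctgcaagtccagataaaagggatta
The Gnao1 stretch held 36 CG pairs at 76.4% G and C, and 97.8% of the 32851 promoters in the set held as many or fewer. The Gnb5 stretch held 3 at 50.8% G and C, and 37.8% of promoters held as many or fewer. The motif CG reads the same on both strands, at least 1 was present in 92.1% of promoters, and the median promoter held 6. These letters are a description of the genes and carry no measurement of these cells.

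Counts came from primers at the 3′ end of transcripts, so that a gene's count did not scale with its length, and levels of different genes are compared here on that footing, without a correction for capture. No member shared a stretch of 50 bases with another gene in the last 500 bases of its transcripts in GRCm38. Exons of Gnb2 overlapped those of Epo and Mir6418 on the same strand. Overlaps on the opposite strand involved Gnal with Mppe1, Gnao1 with 4930488L21Rik, Gnas with Gm20721 and Nespas, and Gnb5 with Gm19531, and the use of strand in counting was not given in the sources used here.

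The first comparison asked how the subunits differed between Synpr-high and Synpr-low neurons. In Synpr-high cells Gnb4 was 8.02-fold higher and supplied most beta subunit counts, Gnao1 was 2.93-fold higher and was the leading alpha subunit, and Gnb1, Gnas and Gnai1 were higher by smaller amounts. Gnb5 was 1.67-fold lower. All 10 members passed the filter on low counts, 5 were higher and 1 was lower at an adjusted p under 0.05, against 4.48% higher and 4.34% lower among 13641 genes tested. The sums of the groups did not overlap for those 6 members, as for 15.6% of genes tested, and the median log2 change was 0.27 over the members against -5.98e-04 over all genes.

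Gnb4 stood at 968, 1327, 1326 and 1257 CPM in the Synpr-high sums of the blindly sampled mouse and projection mice 1, 2 and 3, an order kept in all lists of values below. In the Synpr-low sums it stood at 121, 131, 222 and 134 CPM. Every Synpr-high sum lay far above every Synpr-low sum, with means of 1219.6 ± 171 and 152 ± 47.2 CPM (SD, n = 4 mice; log2 change 3.0, SE 0.21, adjusted p = 2.19e-05, edgeR quasi-likelihood, adjusted by Benjamini-Hochberg over all genes). The call held in 17 of 17 alternative fits, with adjusted p from 6.41e-46 to 0.00173.

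Gnb1, the widespread beta subunit, was at 301, 251, 241 and 269 CPM in Synpr-high and 222, 159, 169.7 and 193 CPM in Synpr-low. The groups did not overlap, and all 4 mice were higher in Synpr-high (266 ± 26 against 186 ± 27.9 CPM; log2 change 0.52, SE 0.13, adjusted p = 0.0339). The call was lost without projection mouse 1, 2 or 3, with adjusted p of 0.161, 0.135 and 0.175, and over 17 alternatives adjusted p ran from 0.00220 to 0.369. Gnb5, the partner of R7 RGS proteins, moved the other way, from 255, 229, 215 and 175 CPM in Synpr-low to 171, 120.4, 122 and 112 CPM in Synpr-high. All 4 mice were lower in Synpr-high (131 ± 26.6 against 218 ± 33.5 CPM; log2 change -0.74, SE 0.16, adjusted p = 0.0192). Without projection mouse 1, 2 or 3 its adjusted p was 0.145, 0.127 and 0.0639, within a range of 5.57e-04 to 0.145 over 17 alternatives. Gnb2 was at 295, 165, 169 and 175 CPM in Synpr-high and 309, 159, 155 and 176 CPM in Synpr-low (log2 change 0.0080, SE 0.26, adjusted p = 0.995). Its groups overlapped in full, and the blindly sampled mouse was the highest in both.

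As a share of all Gnb1, Gnb2, Gnb4 and Gnb5 counts, Gnb4 took 55.8, 71.2, 71.4 and 69.3% in Synpr-high and 13.3, 19.3, 29.2 and 19.8% in Synpr-low. The shares averaged 66.9 ± 7.46% and 20.4 ± 6.56%, a difference of 46.5 percentage points that ran from 42.2 to 51.9 within mice. An exact two-sided permutation test over the 8 sums gave p = 0.0286, the smallest that 4 against 4 allows, and sign flips within mice gave p = 0.125, the smallest that 4 mice allow. In Synpr-low cells the beta counts were spread more evenly, with 29% from Gnb5, 26% from Gnb2 and 24.7% from Gnb1, and the levels of neighbouring subunits overlapped between mice. In Synpr-high cells Gnb1 supplied 14.7%, Gnb2 11.2% and Gnb5 7.26%. Each sum held 3423 to 50447 beta counts.

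The 4 beta subunits together reached 1734, 1864, 1858 and 1814 CPM in Synpr-high and 906, 678, 761 and 678 CPM in Synpr-low. Their summed level was 2.40 times as high in Synpr-high (1817 ± 60.1 against 756 ± 108 CPM, difference 1061 CPM; exact permutation p = 0.0286, sign flips within mice p = 0.125, each the smallest possible). Without Gnb4 the sums were 766, 537, 532 and 556 CPM and 786, 547, 539 and 544 CPM. These overlapped, the difference was -6.15 CPM with a range of -19.5 to 12.1 CPM within mice, and the exact permutation p was 0.686. In the plot of beta composition, the Gnb4 segment filled 55.8% to 71.4% of each Synpr-high bar and 13.3% to 29.2% of each Synpr-low bar.

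**Figure D1:**
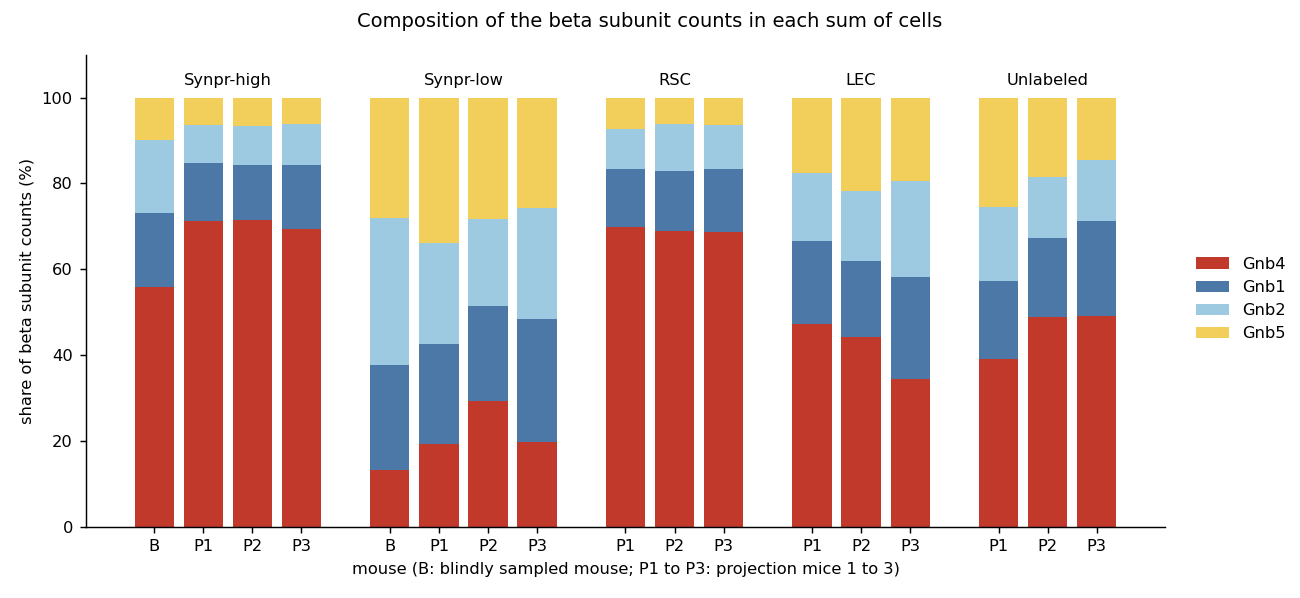
Share of beta subunit counts (%) from Gnb4, Gnb1, Gnb2 and Gnb5 in each sum of cells, by mouse and group, with 1 stacked bar for each sum. Gnb4 fills 55.8% to 71.4% of the Synpr-high bars, 13.3% to 29.2% of the Synpr-low bars, 68.8% to 69.9% of the RSC bars and 34.4% to 47.2% of the LEC bars.

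Among alpha subunits, Gnao1, the abundant inhibitory-class subunit of neurons, stood at 1749.6, 1739, 1716 and 1711 CPM in Synpr-high and 635, 600.3, 597 and 527 CPM in Synpr-low. The 4 Synpr-high sums lay within 1711 to 1749.6 CPM, and none came near the Synpr-low sums (1729 ± 18.3 against 590.1 ± 45.2 CPM; log2 change 1.55, SE 0.079, adjusted p = 3.10e-06). The call held in 17 of 17 alternative fits. Gnas, the stimulatory alpha subunit, was at 1025, 1057, 969 and 1226 CPM and 852, 852, 719.7 and 844 CPM. Its groups did not overlap (1069 ± 111 against 817 ± 64.8 CPM; log2 change 0.39, SE 0.098, adjusted p = 0.0344), but the call was lost without projection mouse 1, 2 or 3 (adjusted p = 0.151, 0.0974 and 0.177) and with scaling by library size alone (adjusted p = 0.0839), within 0.00362 to 0.206 over 17 alternatives. Gnai1, an inhibitory subunit, was at 302, 362, 335 and 317 CPM and 229, 249, 235 and 189 CPM. It was higher in Synpr-high in all 4 mice (329 ± 25.5 against 226 ± 25.9 CPM; log2 change 0.54, SE 0.11, adjusted p = 0.0126), with adjusted p of 0.0726, 0.0853 and 0.0881 without projection mouse 1, 2 or 3 and a range of 9.14e-04 to 0.253 over 17 alternatives.

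Gnaq, Gnal and Gnaz did not pass the test. Gnaq, which acts on phospholipase C beta, was at 159, 145, 116 and 156 CPM in Synpr-high and 138, 129, 125 and 129 CPM in Synpr-low (log2 change 0.15, SE 0.12, adjusted p = 0.618). Gnal, the olfactory and striatal relative of Gnas, was at 113, 92.3, 75.8 and 71.4 CPM and 97.7, 76, 137 and 83.2 CPM (log2 change -0.16, SE 0.21, adjusted p = 0.800). Gnaz, a pertussis-toxin-resistant inhibitory subunit, was at 209.8, 142, 198 and 156 CPM and 199.9, 165, 167 and 157 CPM (log2 change 0.036, SE 0.15, adjusted p = 0.957). For each of the 3 the groups overlapped. The 6 alpha subunits summed to 3536 ± 94.5 CPM in Synpr-high and 2033 ± 98.5 CPM in Synpr-low, 1.74 times as high (difference 1503 CPM; exact permutation p = 0.0286, sign flips within mice p = 0.125, each the smallest possible).

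The order of the alpha subunits differed between the groups. In Synpr-high cells it ran Gnao1, Gnas, Gnai1, Gnaz, Gnaq and Gnal, and of the neighbours in that order the ranges of Gnaz and Gnaq overlapped. In Synpr-low cells it ran Gnas, Gnao1, Gnai1, Gnaz, Gnaq and Gnal, and overlaps were seen between Gnai1 and Gnaz and between Gnaq and Gnal. Gnao1 exceeded Gnas in 4 of 4 Synpr-high sums, and Gnas exceeded Gnao1 in 4 of 4 Synpr-low sums. Gnao1 supplied 48.9 ± 1.37% of alpha counts in Synpr-high and 29 ± 1.21% in Synpr-low, and Gnas 30.2 ± 2.42% and 40.2 ± 3.10%.

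**Figure D2:**
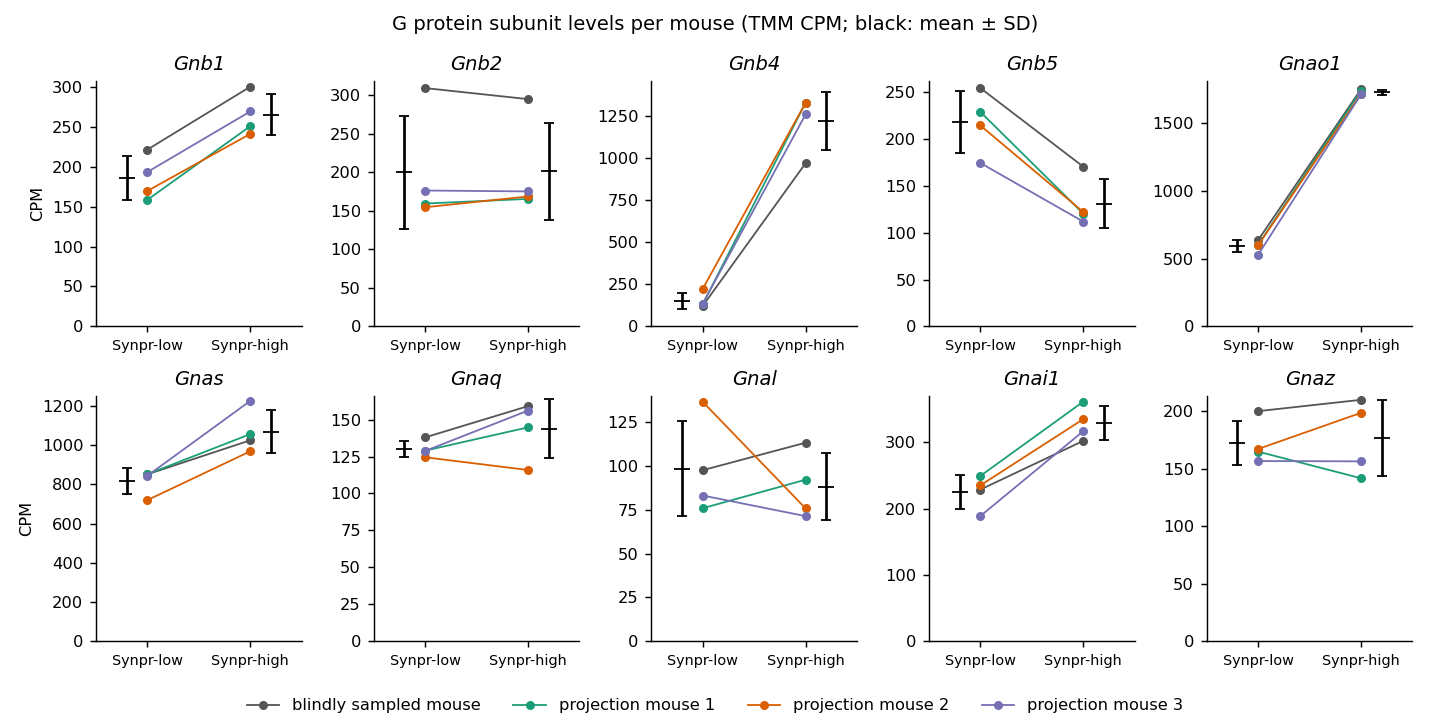
Level (CPM) of each of the 10 subunits in the Synpr-low and Synpr-high sums, with 1 line per mouse and the mean ± SD over 4 mice in black. The lines of Gnb4 and Gnao1 rise steeply in all 4 mice, to means of 1220 and 1729 CPM, those of Gnb5 fall, and those of Gnb2, Gnaq, Gnal and Gnaz stay mixed.

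All 6 calls held without the blindly sampled mouse and without the 4 cells holding Gad1 and Gad2. With unlabelled cells alone, which include all kept cells of the blindly sampled mouse, the calls of Gnb4, Gnao1 and Gnb5 held. Adjusted p was then 0.369 for Gnb1, 0.206 for Gnas and 0.253 for Gnai1. Thinning every cell to 20000 counts took the call of Gnb5 (adjusted p = 0.0532), and leaving out the cells with layer 6 markers took that of Gnai1 (adjusted p = 0.0518).

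The share of Gnb4 was then followed cell by cell, in cells with at least 10 beta counts. Among 436 Synpr-high cells the median share was 67.1% (quartiles 56.7% and 76.3%), and Gnb4 supplied more than 50% of beta counts in 377 cells, or 86.5%. Medians per mouse were 55.6%, 70.7%, 71.8% and 68.6%, lowest in the blindly sampled mouse. Synpr-low cells were split by layer 6 markers, the genes Ctgf, Sla, Foxp2, Rprm and Syt6 at a summed level of 50 CPM. The 427 Synpr-low cells without these markers had a median of 11.1% (quartiles 0.912% and 31.8%), and 45 of them, or 10.5%, exceeded 50%. Among 120 cells with layer 6 markers the median was 1.87% (quartiles 0% and 9.0%), and 0 exceeded 50%, while 1 stood at exactly 50%. Taken as 3 of 120 cells, a count of 0 allows a share of cells up to 2.5%. Within single mice, with fewer cells each, that bound was 7.5% or higher. The bound covers counting error only, since cells of a mouse are not independent. Cells near the Synpr limit lay between the groups, with Gnb4 at 48.0% of 1927 beta counts in the 13 cells just below it and at 51.2% of 1689 beta counts in the 8 just above.

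**Figure D3:**
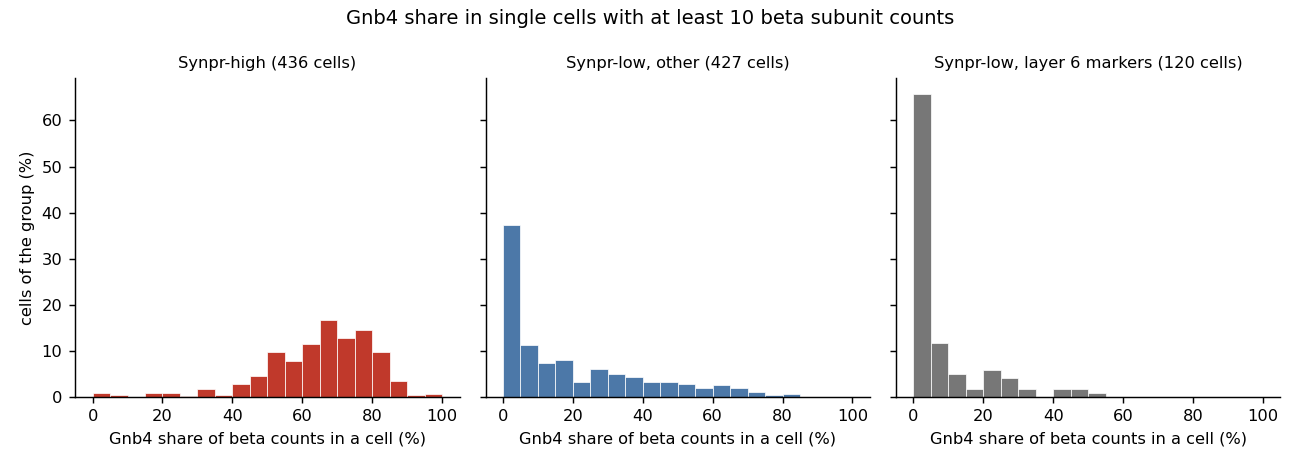
Histograms of the Gnb4 share of beta counts (%) in single cells with at least 10 beta counts, as a percent of the cells in each of 3 groups. Synpr-high cells centre at a median of 67.1%, other Synpr-low cells pile up near 0 with a tail to high shares (median 11.1%), and cells with layer 6 markers stay low (median 1.87%).

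After thinning each cell to 20000 counts, which left out 84 shallower cells and kept 927, Gnb4 was detected in 98.8% of 406 Synpr-high cells, 60.6% of 406 other Synpr-low cells and 33.9% of 115 cells with layer 6 markers. Without thinning those shares were 99.3%, 73.9% and 60.5%. The mean thinned count of Gnb4 was 24.7, 3.6 and 1.13 per cell. Gnb5 showed the opposite order, with 71.4%, 79.8% and 87.0% of thinned cells and 85.4%, 87.1% and 93.5% without thinning. Gnao1 was detected in 100%, 99.0% and 99.1% of thinned cells and in 99.8%, 98.2% and 100% of unthinned ones, so its difference between groups lay in level rather than in the number of cells with a count.

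The second comparison, by projection target, is the contrast for which cells were labelled. RSC cells had 3.26-fold more Gnb4 and 1.99-fold more Gnao1 than LEC cells, and the other 8 members did not pass the test. Over 13976 genes tested, 1.89% were called higher and 2.06% lower in RSC, and of the 10 members 2 were called higher and 0 lower, while 5 had an unadjusted p under 0.05. The RSC and LEC sums of 6 members did not overlap, as for 22.0% of genes tested. The median log2 change of the members was 0.25, against -0.00125 over all genes. RSC cells were mostly Synpr-high (213 of 247) and LEC cells mostly Synpr-low (241 of 286), so this contrast shares much of its cell make-up with the first.

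Gnb4 was at 1259.9, 1211 and 1271 CPM in the RSC sums of projection mice 1, 2 and 3, at 476, 396 and 278 CPM in their LEC sums and at 384, 565 and 565 CPM in their unlabelled sums. Every RSC sum lay above every LEC and unlabelled sum (1247 ± 32.1 against 383 ± 100 CPM, n = 3 mice; log2 change 1.70, SE 0.19, adjusted p = 0.00164, edgeR). Without projection mouse 2 its adjusted p was 0.0540, and 12 of 13 alternatives kept the call, with adjusted p from 1.84e-20 to 0.0540. Gnao1 was at 1636, 1615 and 1695 CPM in RSC, 916, 842 and 727 CPM in LEC and 953, 894 and 983 CPM in unlabelled sums. The RSC sums exceeded all others (1649 ± 41.6 against 828 ± 95.1 CPM; log2 change 0.99, SE 0.089, adjusted p = 6.24e-04), and the call held in 13 of 13 alternatives.

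Of the other beta subunits, Gnb1 was at 243, 247 and 268 CPM in RSC and 195, 160.02 and 192 CPM in LEC (log2 change 0.47, SE 0.14, adjusted p = 0.102; range over 13 alternatives 0.0130 to 0.427). Gnb5 was at 132, 107 and 119.9 CPM and 176, 195 and 156 CPM (log2 change -0.55, SE 0.16, adjusted p = 0.0880; range 0.0170 to 0.489). For both genes the 3 RSC sums did not overlap the 3 LEC sums, yet neither passed the adjusted threshold in edgeR. DESeq2 gave adjusted p = 0.0172 and 0.0170. Gnb2 averaged 183 and 163 CPM (log2 change 0.17, SE 0.12, adjusted p = 0.565). Of the other alpha subunits, Gnas averaged 1127 and 902 CPM (log2 change 0.32, SE 0.12, adjusted p = 0.206) and Gnai1 364 and 282 CPM (log2 change 0.37, SE 0.17, adjusted p = 0.323). Gnaq, Gnal and Gnaz had log2 changes of 0.12, -0.37 and -0.19, with adjusted p of 0.770, 0.556 and 0.575.

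Gnb4 supplied 69.9, 68.9 and 68.8% of beta counts in RSC, 47.2, 44.1 and 34.4% in LEC and 39, 48.9 and 49% in unlabelled cells of the 3 projection mice. The RSC shares were nearly equal (69.2 ± 0.614%), the LEC shares spread more (41.9 ± 6.71%), and the groups did not overlap. The difference of 27.3 percentage points had an exact permutation p of 0.1, the smallest that 3 against 3 allows. Sign flips within mice gave p = 0.25, the smallest that 3 mice allow. Beta subunits other than Gnb4 summed to 556 ± 18.7 CPM in RSC, 521 ± 17.3 in LEC and 593 ± 5.30 in unlabelled cells.

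On plate 12, which held both labels of projection mouse 3, Gnb4 was at 1278 CPM in 34 RSC cells and 429 CPM in 44 LEC cells, with shares of beta counts of 67.1% and 46.3%, and Gnao1 was at 1595 and 912 CPM (scaled by library size). Of those cells, 85.3% of RSC and 22.7% of LEC were Synpr-high. The same mouse's other LEC plate, with 86 cells of which 6.98% were Synpr-high, had 170.1 CPM of Gnb4 and a share of 23.1%. LEC cells of 1 mouse thus differed between plates, and the part of their Synpr-high fraction in this was not tested. Inhibitory markers, 5 genes of which Gad1, Gad2 and Sst were at 0 in LEC, summed to 133, 6.91 and 200 CPM in RSC and 0.886, 0.162 and 0.427 CPM in LEC. Oligodendrocyte markers summed to 773, 27.1 and 71.2 CPM in RSC and 310.3, 154 and 83.6 CPM in LEC. Their part in these differences was not tested.

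**Figure D4:**
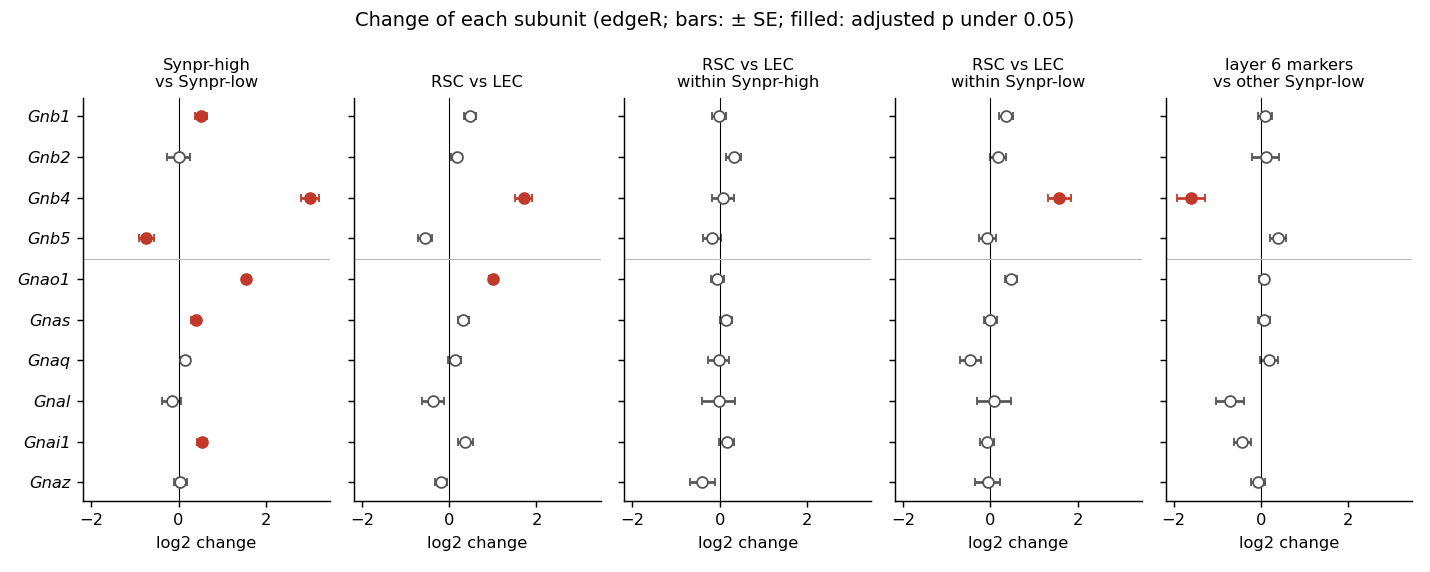
Log2 change of each of the 10 subunits (horizontal axis, ± SE) in 5 comparisons, filled where the adjusted p was under 0.05. Gnb4 is filled in 4 of 5 panels, at 3.0, 1.70, 1.58 and -1.61, and lies near 0 for RSC against LEC within Synpr-high cells (0.079).

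RSC and LEC cells were next compared on the same side of the Synpr limit. Among Synpr-high cells no member passed the test between targets, and 0 of 12410 genes (0.0%) were called by edgeR, with 508 at an unadjusted p under 0.05 and 16 called by DESeq2. Of the 10 members 0 were at an unadjusted p under 0.05 and DESeq2 called 0. Gnb4 was at 1399, 1353 and 1321 CPM in Synpr-high RSC cells and 1309, 1481 and 1069 CPM in Synpr-high LEC cells (log2 change 0.079, SE 0.25, adjusted p = 1.0), or 72, 71.7 and 69.8% and 69.3, 74.6 and 67.6% of beta counts. Gnao1 averaged 1759.8 ± 12.4 and 1831 ± 117 CPM (log2 change -0.056, SE 0.14, adjusted p = 1.0). Both genes overlapped between targets, and log2 changes of the 10 members ran from -0.40 for Gnaz to 0.31 for Gnb2.

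Among Synpr-low cells, Gnb4 was 2.98-fold higher in RSC than in LEC cells. It stood at 316, 617 and 263 CPM in RSC, from 12, 14 and 8 cells, and at 111, 164 and 127 CPM in LEC, from 62, 65 and 114 cells. RSC and LEC averaged 399 ± 191 and 134 ± 27.3 CPM, with RSC highest in projection mouse 2 (log2 change 1.58, SE 0.26, adjusted p = 0.0308). Of 12410 genes, 24 (0.193%) were called here, and Gnb4 was the single member among them. The call was lost whichever mouse was left out, at adjusted p = 0.280 for projection mouse 1, 0.156 for 2 and 0.360 for 3, within 9.25e-08 to 0.360 over 9 alternatives. Gnb4 supplied 36.4, 52.3 and 31.3% of beta counts in these RSC cells and 18, 24.9 and 19.4% in these LEC cells, and the former sums held as few as 934 beta counts. The difference between the Synpr groups in how Gnb4 varied with target was not called (interaction log2 -1.50, SE 0.36, adjusted p = 0.255), with a range of 0.00368 to 0.680 over 9 alternatives, of which DESeq2 and the fit without a filter on low counts passed the threshold. Of all genes, 8 (0.0645%) were called in that test.

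Gnao1 was at 732, 982 and 613 CPM in Synpr-low RSC cells and 561, 603 and 512 CPM in Synpr-low LEC cells. The test was not passed (log2 change 0.48, SE 0.14, adjusted p = 0.236; range over 9 alternatives 0.0280 to 0.521). The Synpr-low RSC sum of projection mouse 1 held 5092 CPM of oligodendrocyte markers, against 30.7 and 56.7 CPM in the other two and 83.5 to 180.0 CPM in LEC. Layer 6 markers were at 78.5, 98.0 and 0 CPM in Synpr-low RSC sums and 3.02 to 10.8 CPM in LEC. Slc30a3, Nnat and Spon1, markers of the claustrum shell, summed to 816 to 908 CPM in Synpr-low RSC sums and 1216 to 2149 CPM in LEC. The part of these markers was not tested.

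In single cells, 12 of 34 Synpr-low RSC cells, or 35.3% (95% Clopper-Pearson interval 19.7% to 53.5%), held at least 400 CPM of Gnb4, a limit set after the values were seen. They came from all 3 mice, as 3 of 12, 6 of 14 and 3 of 8 cells. Among Synpr-low LEC cells 23 of 241, or 9.54% (6.15% to 14.0%), reached that level, as 2 of 62, 10 of 65 and 11 of 114 cells, and among unlabelled Synpr-low cells of the projection mice 16 of 173, or 9.25% (5.38% to 14.6%). Median Synpr was 9.32 CPM in the Synpr-low RSC cells and 0 in the LEC and unlabelled ones, and the highest cells stood at 109.9, 180.2 and 177.6 CPM. These intervals cover counting error only, since cells of a mouse are not independent. Median totals per cell were 117597 counts in the Synpr-low RSC cells, 151947 in the LEC and 137267 in the unlabelled ones. In these groups 5, 7 and 1 cells held under 20000 counts, 4 of the 5 in projection mouse 1, and the part of depth was not tested.

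Synpr-low cells themselves were not uniform in Gnb4. The 124 cells with layer 6 markers had 3.05-fold less Gnb4 than the 449 others, at 28.4, 54.9, 94.2 and 55.3 CPM against 159.7, 157, 252 and 148 CPM. Projection mouse 2 was the highest in both groups (58.2 ± 27.1 against 179 ± 48.8 CPM; log2 change -1.61, SE 0.32, adjusted p = 0.0245). Gnb4 was the 1 member called lower and 0 were called higher, against 1.29% in each direction among 10932 genes. The call was lost without projection mouse 1 or 3 (adjusted p = 0.137 and 0.124) and with layer 6 limits of 20 or 200 CPM (adjusted p = 0.0563 and 0.0521), within 5.44e-05 to 0.137 over 9 alternatives. Oligodendrocyte markers summed to 11.2, 48.5, 15.7 and 26.5 CPM in cells with layer 6 markers and 57.8, 625, 504 and 85.1 CPM in the others. Their part in the results of this split was not tested. The Gnb4 share of beta counts was 3.18, 7.32, 13.4 and 9.13% in cells with layer 6 markers and 17.7, 23.2, 31.7 and 21.1% in the others. Gnao1 averaged 618 ± 24.1 and 594 ± 47.2 CPM (log2 change 0.056, SE 0.11, adjusted p = 0.933). Gnb5 averaged 271 ± 62.8 and 206 ± 24.6 CPM (log2 change 0.39, SE 0.19, adjusted p = 0.421), Gnal 65.7 ± 28.8 and 107 ± 27.8 CPM (log2 change -0.72, SE 0.32, adjusted p = 0.372), and Gnai1 180.3 ± 41.6 and 243 ± 33.6 CPM (log2 change -0.43, SE 0.19, adjusted p = 0.370).

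Gamma subunits, the partners of Gnb1, Gnb2 and Gnb4, were read from 12 genes. Of 8 that passed the filter, 3 were higher and 2 lower in Synpr-high cells, with a median log2 change of 0.29. Over all genes tested, 4.48% were called higher and 4.34% lower. Gng2, a common brain gamma subunit, was at 653, 708, 612 and 639 CPM in Synpr-high and 139.8, 166, 164 and 174 CPM in Synpr-low. The 4 mice agreed closely within each group (653 ± 40.4 against 161 ± 14.8 CPM; 4.05-fold; log2 change 2.02, SE 0.10, adjusted p = 2.86e-06; called in 17 of 17 alternatives). Gng2 made up 37.5 ± 4.73% of gamma counts in Synpr-high and 16.3 ± 3.81% in Synpr-low. Gng3, the most abundant gamma subunit by counts, was at 1191, 736, 823 and 832 CPM and 937, 552, 587 and 634 CPM. It was higher in Synpr-high in all 4 mice, but the groups overlapped (log2 change 0.40, SE 0.19, adjusted p = 0.288), and a fit with a block for the mouse gave adjusted p = 0.00127, in a range of 0.00127 to 0.559 over 17 alternatives.

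Gng4 was at 87.3, 65.7, 62.6 and 88 CPM in Synpr-high and 47.9, 22, 12.7 and 12.7 CPM in Synpr-low. The groups did not overlap (log2 change 1.70, SE 0.40, adjusted p = 0.0248), with adjusted p of 0.128, 0.104 and 0.157 without projection mouse 1, 2 and 3 and 0.151 in unlabelled cells alone, within 8.39e-05 to 0.157 over 17 alternatives. Gngt2, named for the cone photoreceptor transducin, rested on 22, 62, 147 and 125 counts in Synpr-high and 2, 7, 6 and 23 in Synpr-low, or 6.66 and 0.497 CPM (log2 change 3.72, SE 0.63, adjusted p = 0.00449; 0.0951 in unlabelled cells alone; 2.23e-07 to 0.0951 over 16 alternatives). Gng7, a gamma subunit best known from striatum, was lower, at 0.622, 1.79, 2.68 and 3.99 CPM in Synpr-high and 7.41, 11.6, 12.1 and 12.7 CPM in Synpr-low (log2 change -2.19, SE 0.47, adjusted p = 0.0161; 0.114, 0.0990 and 0.0513 without projection mouse 1, 2 and 3; 0.0721 with cells thinned to 1 depth; 5.42e-05 to 0.114 over 17 alternatives). Gng12 was called lower although its groups overlapped by a little, at 14.9, 10.9, 11.2 and 12.2 CPM and 69.6, 35.5, 29.8 and 14.5 CPM. Its log2 change was -1.60 (SE 0.40, adjusted p = 0.0344). The call was lost when projection mouse 1 (adjusted p = 0.172), projection mouse 2 (0.140) or the cells with layer 6 markers (0.159) were left out, within 6.12e-04 to 0.172 over 17 alternatives.

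By target, 2 of 8 gamma subunits were higher and 0 lower in RSC cells, against 1.89% higher and 2.06% lower among all genes tested. Gng2 was at 666, 525 and 605 CPM in RSC and 332, 212 and 245 CPM in LEC (log2 change 1.19, SE 0.17, adjusted p = 0.00410), and Gng4 at 61.4, 70.1 and 105 CPM and 38.7, 18 and 25.5 CPM (log2 change 1.52, SE 0.33, adjusted p = 0.0271). Neither gene's groups overlapped, as for 22.0% of genes tested. Both calls were lost without projection mouse 2 or 3, with adjusted p of 0.0686 and 0.103 for Gng2 and 0.213 and 0.266 for Gng4, in ranges of 5.67e-11 to 0.103 and 8.62e-05 to 0.266 over 13 alternatives. Within Synpr-low cells Gng2 averaged 171 ± 41.2 CPM in RSC and 166 ± 15.6 CPM in LEC (log2 change 0.043, SE 0.18, adjusted p = 0.967). Between cells with and without layer 6 markers it averaged 166 ± 18.8 and 162 ± 17.6 CPM (log2 change 0.033, SE 0.15, adjusted p = 0.981).

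The partners of Gnb5 are R7 RGS proteins, which speed the return of inhibitory alpha subunits to rest, and the proteins that anchor them. Of 7 tested genes of this group, 2 were lower and 0 higher in Synpr-high cells, with a median log2 change of -0.42. Among all genes tested, 4.34% were called lower and 4.48% higher, and the sums of 15.6% did not overlap. Gpr158, an orphan receptor that binds R7 RGS complexes, was at 5.28, 4.67, 3.33 and 5.07 CPM in Synpr-high and 25.4, 30.2, 26.2 and 20.1 CPM in Synpr-low. Every Synpr-high sum was below every Synpr-low sum (4.59 ± 0.876 against 25.5 ± 4.13 CPM; log2 change -2.48, SE 0.25, adjusted p = 2.27e-04; called in 17 of 17 alternatives). Rgs6 was listed with 0, 0, 10 and 0 counts in Synpr-high and 49, 287, 200 and 304 counts in Synpr-low, the last equal to 13, 14.8, 9.31 and 10.8 CPM. It was called lower (edgeR adjusted p = 0.00785; 0.0544 without projection mouse 1; 0.00177 to 0.0544 over 16 alternatives). Rgs7 averaged 1.81 ± 1.44 and 6.62 ± 1.76 CPM (adjusted p = 0.0714; 0.0222 with the mouse as a block; 0.0108 to 0.322 over 17 alternatives). Rgs7bp, the membrane anchor of R7 complexes, averaged 365 ± 35.6 and 489 ± 72.7 CPM (adjusted p = 0.0595; 0.00253 with the block; 0.00253 to 0.224 over 17 alternatives). By target edgeR called 0 of 7, with 4 at an unadjusted p under 0.05, and DESeq2 called 4. Across all genes by target, 2290 of 13976 were at an unadjusted p under 0.05 in edgeR, and DESeq2 called 1145 of 13937. For Gpr158, Rgs6, Rgs7 and Rgs7bp the adjusted p of edgeR ran from 0.0754 to 0.120. Over 13 alternatives, DESeq2 included, adjusted p ran from 0.0362 to 0.367 for Gpr158, 0.00587 to 0.435 for Rgs6, 0.04999 to 0.754 for Rgs7 and 0.0236 to 0.436 for Rgs7bp. DESeq2 apart, edgeR passed the threshold for Rgs6 with RSC and LEC sums alone (adjusted p = 0.0172) and for Gpr158 without plate 12 (adjusted p = 0.0362).

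Adenylyl cyclases make cyclic AMP and are raised by Gnas, and some isoforms are lowered by inhibitory alpha subunits. Of 8 tested, 1 was higher and 2 lower in Synpr-high cells, against 4.48% higher and 4.34% lower among all genes tested. Adcy9 was at 15.8, 13.4, 22.2 and 9.74 CPM in Synpr-high and 54.5, 56, 66 and 75 CPM in Synpr-low (log2 change -2.05, SE 0.25, adjusted p = 6.83e-04; called in 17 of 17 alternatives). Adcy1, a calcium-stimulated isoform, was at 105, 143, 129 and 149.8 CPM and 232, 278, 190.1 and 202 CPM. It was lower in all 4 mice (log2 change -0.78, SE 0.16, adjusted p = 0.0110; 0.0666 without projection mouse 1 and 0.0586 without cells with layer 6 markers; 1.16e-04 to 0.0666 over 17 alternatives). Adcy2, which beta and gamma subunits stimulate together with Gnas, was at 93.5, 102, 75.2 and 103 CPM and 44.5, 36.4, 19.3 and 11.6 CPM (log2 change 1.76, SE 0.36, adjusted p = 0.0130; 0.0642 and 0.0748 without projection mouse 1 and 2; 5.66e-06 to 0.0748 over 17 alternatives). None of the 3 overlapped between the groups, as for 15.6% of all genes tested.

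In the contrast by target, 1 of 8 cyclases was higher and 1 lower in RSC cells, against 1.89% and 2.06% of all genes tested. Adcy9 averaged 19.3 ± 4.13 CPM in RSC and 62.1 ± 12.4 CPM in LEC (log2 change -1.70, SE 0.23, adjusted p = 0.00335; 0.103 without projection mouse 3). Adcy2 averaged 92.4 ± 14.4 and 28.7 ± 22.1 CPM (log2 change 1.69, SE 0.41, adjusted p = 0.0471). It was lost without projection mouse 2 or 3 (adjusted p = 0.244 and 0.375), without plate 12 (adjusted p = 0.0515) and with RSC and LEC sums alone in the fit (adjusted p = 0.0796), and over 13 alternatives adjusted p ran from 2.66e-09 to 0.103 for Adcy9 and from 6.49e-05 to 0.375 for Adcy2. Between Synpr-low cells with layer 6 markers and the others, Adcy1 was higher in the former, at 328, 419.9, 401 and 273 against 187, 244, 157 and 196 CPM (log2 change 0.86, SE 0.19, adjusted p = 0.0361). That call was lost whichever mouse was left out, at adjusted p = 0.0895 for the blindly sampled mouse and 0.108, 0.236 and 0.0888 for projection mice 1, 2 and 3, and at a layer 6 limit of 20 CPM (adjusted p = 0.0561), within 7.54e-04 to 0.236 over 9 alternatives.

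Phospholipase C beta isoforms, the effectors of Gnaq, gave 1 call higher among 3 tested. By Synpr group 4.48% of all genes tested were called higher and 4.34% lower, and the sums of 15.6% did not overlap. Plcb1 was at 294, 368, 352 and 332 CPM in Synpr-high and 168, 205, 193 and 181 CPM in Synpr-low, with no overlap (log2 change 0.85, SE 0.11, adjusted p = 8.50e-04; 2.14e-09 to 0.102 over 17 alternatives, of which the unlabelled cells alone missed the threshold). By target it was at 395, 345 and 356 CPM in RSC and 202, 209 and 183 CPM in LEC (log2 change 0.88, SE 0.11, adjusted p = 0.00183; 0.0640 without projection mouse 3; 6.22e-12 to 0.0640 over 13 alternatives). Plcb4 was not called by Synpr group, yet within Synpr-low cells it was at 42.1, 206, 78.2 and 120.2 CPM in cells with layer 6 markers and 17, 15, 17.9 and 27.9 CPM in the others (log2 change 2.52, SE 0.43, adjusted p = 0.0115). Its adjusted p was 0.0839, 0.0833 and 0.0601 when projection mouse 1, 2 or 3 was left out, within 1.44e-07 to 0.0839 over 9 alternatives. Of 5 receptor kinases, which switch off receptors and include the beta-gamma-binding Adrbk2, 1 was lower and 0 higher. Adrbk2 was at 30.8, 30.8, 25.8 and 26.2 CPM in Synpr-high and 60.4, 57.1, 69.6 and 52.9 CPM in Synpr-low (log2 change -1.08, SE 0.15, adjusted p = 0.00134; called in 17 of 17 alternatives). By target it averaged 30.5 ± 5.67 and 64.2 ± 10.2 CPM (log2 change -1.08, SE 0.21, adjusted p = 0.0155), with 0.0734, 0.123 and 0.176 without projection mouse 1, 2 and 3 and 1.47e-04 to 0.176 over 13 alternatives.

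**Figure D5:**
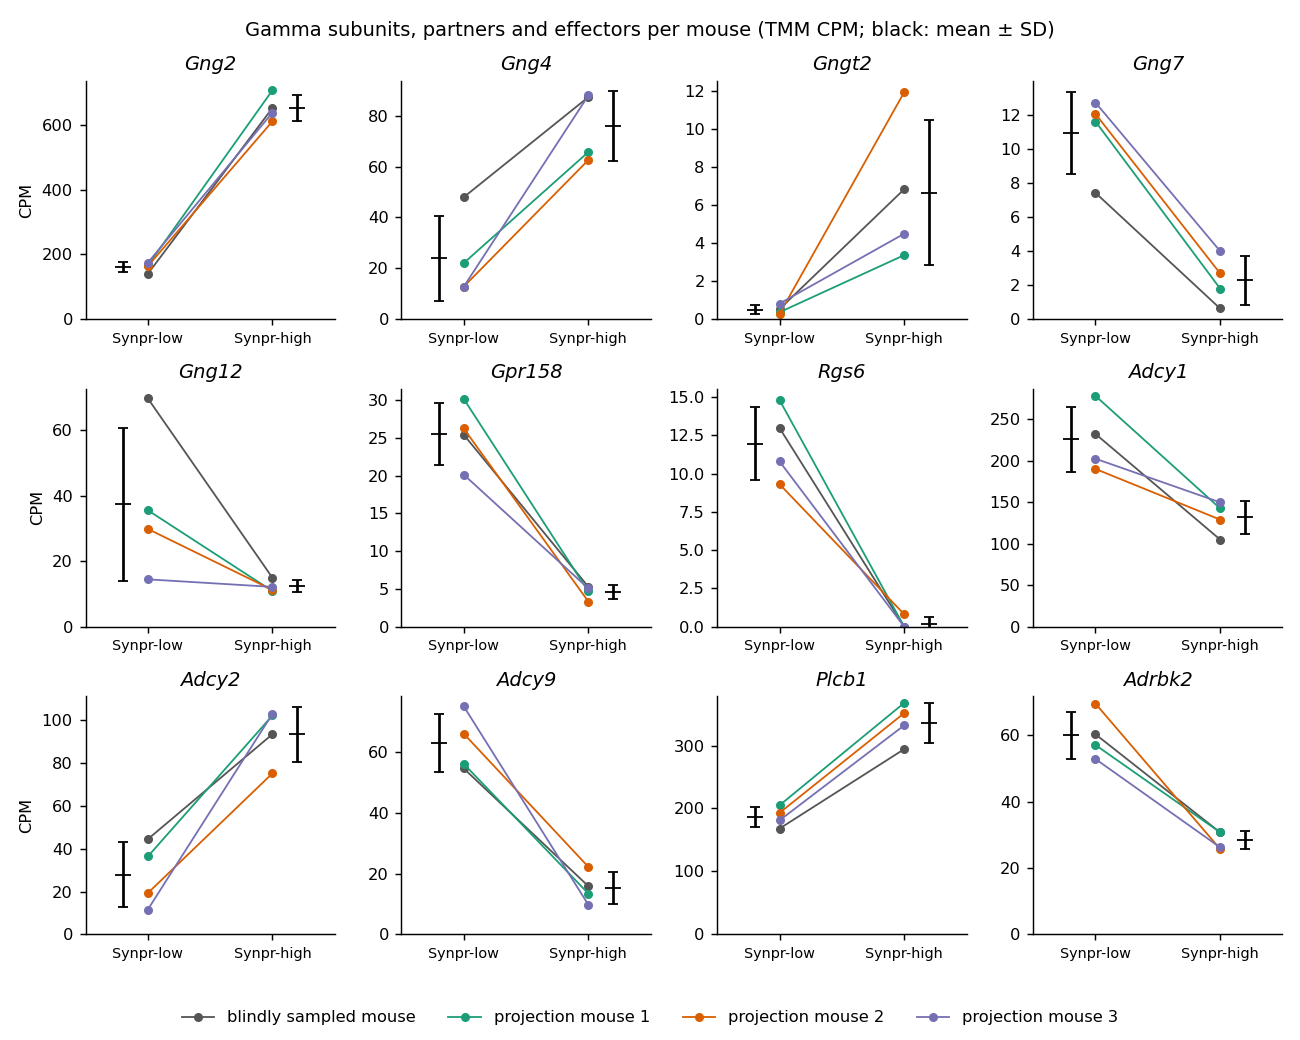
Level (CPM) of 12 genes of G protein partners and effectors in the Synpr-low and Synpr-high sums, with 1 line per mouse and the mean ± SD over 4 mice in black. Gng2, Gng4, Gngt2, Adcy2 and Plcb1 rise in all 4 mice, for example Gng2 from a mean of 161 to 653 CPM, and Gng7, Gng12, Gpr158, Rgs6, Adcy1, Adcy9 and Adrbk2 fall in all 4.

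The remaining groups gave no calls by edgeR in either contrast. These were 4 GIRK channels (Kcnj3, Kcnj5, Kcnj6 and Kcnj9, opened by beta and gamma subunits) with 0 and 1 genes at an unadjusted p under 0.05 by Synpr group and by target, 5 tested genes of subunit assembly and exchange with 1 and 1, and 5 tested of 11 other alpha and beta subunits with 0 and 0. DESeq2 called 0 and 1 of the channels, 1 and 0 of the assembly genes, and 0 and 0 of the other subunits. Gnb3, the remaining beta subunit, reached at most 0.529 CPM in any Synpr sum.

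Likeness of pattern was measured by Pearson's r of log2 CPM over 20 sums of mouse, target and Synpr group, among 8606 genes with a mean of at least 10 CPM. These sums share mice and the Synpr split, and the values are given as a description. Among the genes most like Gnb4 were Rgs12 (r = 0.970), Ppp1r1a (0.969), Oprk1 (0.968) and Nr2f2 (0.967), with Gnao1 at 0.967 and Gng2 at 0.927, while Gnb5 ran opposite at -0.827. Gnao1 was closest to Synpr (0.982), 1500009L16Rik (0.972) and Rtn1 (0.969). For Gnb5 the closest were Mapk10 (0.894), Dync1i1 (0.880) and Rprml (0.871), and for Gnb1 they were Lnx1 (0.910), Socs2 (0.888) and Atp6v1h (0.888). Gnas lay nearest to B2m (0.886), Cd302 (0.878) and Mgat5b (0.843), and Gnai1 to Cnksr2 (0.795), Dek (0.788) and Gng4 (0.788).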

How the data were processed

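The authors deposited counts per gene and cell, not normalized, in 1 table for each set of plates, beside tables of each cell's mouse and projection label. Per the Methods, adapters were removed, transcript reads received their cell barcode and molecular identifier, and STAR (version not given in the sources used here) placed them on the mouse genome. The submitters' processing notes name the build NCBIM37 and Seurat. Counts were treated as reads, so intervals cover counting error only. ERCC spike-ins were left out of totals.

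Kept cells, with Snap25 and Slc17a7 each at 1 count or more, were summed per mouse and group (at least 5 cells). Sums were tested with the quasi-likelihood test of edgeR 4.0.16 in R 4.3.3 (TMM scaling, filterByExpr for low counts, p adjusted over all genes by Benjamini-Hochberg, threshold 0.05), checked on drawn counts with known changes. Shares and summed levels were tested by exact two-sided permutation over sums (Python 3.11.15, scipy 1.17.1). Printed fold changes are fitted, and levels are TMM-scaled CPM. The 10 members and the other gene lists were chosen with earlier results of these data known. All 10 members were named in every comparison, and genes of other lists where they passed the threshold by Synpr group or by target, at most 5 per list. Rgs7, Rgs7bp, Gng3, Plcb4 and Gnb3 were named after their values were seen. The list of genes most like Gnb4 leaves out a gene that is not reported here.

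Alternatives were DESeq2 1.42.0, the mouse as a block, other filters, scalings and limits, thinning, subsets of cells, and each mouse left out. Pairing was checked because sums of 1 mouse come from the same animal. Deviations from group means correlated within mice by 0.204 to 0.631 between Synpr groups (4 pairs), by 0.0449 to 0.0818 between RSC and LEC (3 pairs) and by 0.127 to 0.464 for the layer 6 split (4 pairs), against medians of -0.113, -0.0342 and -0.0643 between different mice.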

Additional observations from a re-analysis of the deposited data

Results flagged for a closer look

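In 56 groups of 4 sums tested for a sum standing apart by Dixon's criterion, 10 were met, where chance gives about 1 in 20 for a single group. Several groups share cells or genes, so the 10 are not independent and cannot be set against that rate. The blindly sampled mouse stood apart in 6. It was high for Gnb2, at 294.9 CPM in Synpr-high (projection mice 165 to 175) and 309 CPM in Synpr-low (155 to 176). It was high for the beta subunits summed without Gnb4, at 766 CPM in Synpr-high, 786 CPM in Synpr-low and 740.4 CPM in Synpr-low cells without layer 6 markers. It was low for the Gnb4 share of beta counts in Synpr-high, at 55.8% against 69.3% to 71.4%. This mouse also had the lower depth per cell, and the part of depth was not tested.

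Projection mouse 2 stood apart in 3 groups, with Gnb4 at 222 CPM in Synpr-low and 252 CPM in Synpr-low cells without layer 6 markers, both above the other mice, and Gnas at 719.7 CPM in Synpr-low, below them. Gnao1 in Synpr-low cells without layer 6 markers was lowest in projection mouse 3, at 524 CPM.

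Cells left out of the comparisons also held Gnb4. In 27 cells with no Snap25 count, with a median total of 1640 counts, Gnb4 was 10 of 20 beta counts, or 50% (95% Clopper-Pearson interval 27.2% to 72.8%). Its counts came from 5 of the 27 cells. In 74 cells with Snap25 but no Slc17a7 count, with a median total of 6597, Gnb4 was 279 of 782 beta counts, or 35.7% (32.3% to 39.1%). Gnb4 had counts in 35 of these cells, and 4 of the 74 held Gad1 and Gad2. Both intervals treat counts as independent, although counts cluster within cells, so they are too narrow for the spread between cells.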

How the results depend on the processing

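Limits are the 4 mice, of which 3 carry target labels, sums of as few as 8 cells, lower depth in the blindly sampled mouse, and both targets together on 1 plate alone. Per the Methods, 3 plates ran on 1 flowcell and the remaining 10 on another, with unlike read lengths. The blindly sampled mouse filled 3 plates and the projection mice 10, though the Methods do not name the plates of each flowcell. If these match, flowcell cannot be told apart from the blindly sampled mouse. Over 93 single-gene results and 1130 alternative values, the direction and side of the threshold were kept in 986, 65 fell short of the threshold, 24 newly passed it, and 55 changed sign. None of those 55 belonged to a change past the threshold in the reported fit.

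The mouse as a block moved the count of genes called from 1203 to 1995 by Synpr group, from 24 to 15 within Synpr-low, from 8 to 1 in the interaction and from 282 to 437 in the layer 6 split, and changed no call of a member. Sign flips within mice, which also use the pairing, left the differences at 46.5 points, 1061 CPM and 1503 CPM for the Gnb4 share, summed beta and summed alpha, at p = 0.125. DESeq2 called 1145 by target, where edgeR called 552, and 16, 288, 113 and 626 within Synpr-high, within Synpr-low, in the interaction and in the layer 6 split. Without a filter on low counts 5, 61 and 24 were called within Synpr-high, within Synpr-low and in the interaction. Unlabelled cells alone gave 601 by Synpr group. Without plate 12, chosen after seeing the data, 12 were called within Synpr-low. Synpr limits of 100 and 400 CPM, also added later for this test, gave 3 and 4 in the interaction. Scaling by library size alone shifted the median of all genes by -0.053 and split the calls by Synpr group into 546 higher and 663 lower.

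Leaving out a mouse gave 545 to 1581 calls by Synpr group (545 without projection mouse 3, 607 without 1, 657 without 2), 59 to 391 by target (63 without projection mouse 2, 59 without 3), 0 to 7 within Synpr-low (7, 0 and 2 without projection mouse 1, 2 and 3), 0 to 1 in the interaction and 61 to 226 in the layer 6 split (96, 61 and 110 without projection mouse 1, 2 and 3). The Gnb4 share then differed by 44.7 to 48.0 points, summed beta by 1020.0 to 1139 CPM and summed alpha by 1434 to 1535 CPM, at p = 0.1, the smallest for 3 against 3.

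Sign changes in values short of the threshold, as log2, ran as follows when a mouse was left out. By Synpr group they were Gnb2 -0.022 to 0.054, Gnal -0.31 to 0.11, Gnaz -0.039 to 0.11. By target they were Gnal -0.61 to 0.099, Adcy1 -0.26 to 0.070, Gng12 -0.12 to 0.86. Within Synpr-high they were Gnb1 -0.054 to 0.043, Gnb4 -0.013 to 0.19, Gnaq -0.11 to 0.16, Gnal -0.40 to 0.64, Gnai1 -0.012 to 0.27, Gnaz -0.69 to 0.17. Within Synpr-low they were Gnb5 -0.24 to 0.064, Gnas -0.14 to 0.14, Gnal -0.31 to 0.38, Gnai1 -0.21 to 0.085, Gng2 -0.22 to 0.20. In the interaction they were Gnb5 -0.19 to 0.046, Gnal -0.56 to 0.26, Gnai1 -0.097 to 0.43, Gnaz -0.69 to 0.31. In the layer 6 split they were Gnb2 -0.017 to 0.22, Gnao1 -0.0042 to 0.098, Gnas -0.053 to 0.17, Gnaq -0.039 to 0.36, Gnaz -0.20 to 0.039, Gng2 -0.021 to 0.063. Other settings changed sign as follows. Library size alone gave Gnb2 -0.042, Gnaz -0.018 by Synpr group. Unlabelled cells alone gave Gnb2 -0.019, Gnaq -0.081, Gnal 0.33. Thinning gave Gng12 -0.21 by target and 0.918 CPM for the summed beta level without Gnb4. Within Synpr-high, no filter gave Gnb1 0.0068, Gnaq 0.00021, the mouse as a block Gnal 0.11, the limit of 100 CPM Gnao1 0.0043, Gnaq 0.044, Gnal 0.080, that of 400 CPM Gnaq 0.046, and no plate 12 Gnao1 0.0095, Gnaq 0.22, Gnal 0.22. Within Synpr-low, DESeq2 gave Gnas 0.045, no filter Gng2 -0.0053, the limit of 100 CPM Gnal -0.048, and no plate 12 Gnb5 0.0065, Gnal -0.15, Gnaz 0.0070. In the interaction, Gnal was 0.13 at 100 CPM and 0.37 without plate 12, and in the layer 6 split Gnaz was 0.018 at a limit of 20 CPM and Gng2 -0.071 at 200 CPM. The cause was not tested.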
